A study of Mus musculus with 11 samples.

Results

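The respiratory chain genes were followed across nEnd, a culture of mouse naive extra-embryonic endoderm that models the primitive endoderm of the blastocyst. Members were chosen by symbol alone: genes beginning Nduf (complex I), Sdh (complex II), Uqcr (complex III), Cox4i, Cox5, Cox6, Cox7 or Cox8 (complex IV) and Atp5 (complex V), without those ending in -ps, together with the 13 protein-coding genes of the mitochondrial DNA (mtDNA). This gave 116 of the 48952 genes of the bulk table, of which 51 belonged to complex I, 8 to complex II, 8 to complex III, 19 to complex IV, 17 to complex V and 13 to mtDNA. Among the 103 nuclear-encoded members were 12 assembly factors, 8 of them Ndufaf genes and 4 Sdhaf genes. The symbols Ndufa11b, Ndufb4c, Ndufs6b and Cox6c2 are annotated as processed pseudogenes and were kept because the rule goes by symbol. In the single-cell data 110 members were found, 97 of them nuclear-encoded.

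Oxidative phosphorylation is carried out in the inner mitochondrial membrane. Complexes I and II pass electrons from NADH and succinate to ubiquinone, complex III passes them on to cytochrome c and complex IV to oxygen, while complexes I, III and IV pump protons that drive ATP synthesis by complex V. Complex II is encoded wholly in the nucleus, whereas the other complexes join nuclear subunits with a few subunits made from mtDNA. In the early embryo the chain is known for its changing balance with glycolysis as pluripotent cells leave the naive state and as lineages separate.

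Bulk RNA-seq covered 9 libraries of nEnd made from an OCT4-mCherry ES cell line, a protein reporter of OCT4, grown on feeder fibroblasts in RACL medium (RPMI with Activin A, CHIR99021 and LIF) and sorted live by antibody to PDGFRA and by the reporter. The Pdgfra+ group carried PDGFRA only, the DP (double positive) group carried both signals and the Oct4+ group the reporter only, with 3 libraries each. Single-cell libraries came from Oct4LOF nEnd, the EPUc line, which is homozygous for an Oct4 (Pou5f1) allele lost on treatment with 4-hydroxytamoxifen (4OHT). PDGFRA-positive cells of that line were sorted and grown with or without 4OHT and then further in RACL, with 1 library for each condition. Each experiment thus used 1 cell line, and the study calls the 3 bulk libraries of a group biological replicates without saying whether they came from separate cultures or sorts. The p-values measure the spread between these libraries, which may be technical.

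The bulk libraries held 8019631 to 11642571 reads assigned to genes. Values are given as counts-per-million (CPM) of reads, scaled by the trimmed mean of M values (TMM), and differences between groups were tested with edgeR's quasi-likelihood test with Benjamini-Hochberg adjustment over 14185 genes, where a gene with adjusted p under 0.05 is called. The sort was visible in the RNA. The sum of 9 endoderm markers (Gata6, Sox17, Sparc and others) lay at 26832 to 61906 CPM in the Pdgfra+ and DP libraries and at 311 to 697 CPM in Oct4+, whereas the sum of 8 epiblast-like markers (Nanog, Sox2, Esrrb and others) lay at 35.0 to 48.0 CPM in Pdgfra+, 244 to 469 CPM in DP and 3093 to 4297 CPM in Oct4+. Pou5f1 was at 8.35 to 26.3 CPM in Pdgfra+ and 859 to 1135 CPM in Oct4+. The sum of 7 feeder fibroblast markers was 150.0 CPM in Oct4+ replicate 1 and 1.34 to 20.9 CPM in the other 8 libraries, and 5 markers of 2-cell-like cells summed to 224 to 914 CPM in Oct4+ against at most 13.1 CPM elsewhere. The sum of 6 trophectoderm markers went the other way, at 777 to 1169 CPM in Pdgfra+, 479 to 617 CPM in DP and 51.4 to 118 CPM in Oct4+. These markers move with the groups, and their part in the results on the respiratory chain was not tested.

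To learn which members can be read in the bulk data, their sequences were first compared with those of other genes. Of the 13 mtDNA genes, 7 passed the filter on low counts, and the other 6 were listed at 0 or 1 read in every library. For 5 of these 6, nearly every 50-base word of the transcript is also found in another annotated gene: 100% for mt-Co2, 99.86% for mt-Co3, 99.53% for mt-Atp6, 98.79% for mt-Nd4l and 97.99% for mt-Nd3. The genes that share them are copies of mtDNA inserted in nuclear chromosomes, such as Gm28661, which matches mt-Co2 over 681 bases with 0 differences. mt-Co2, which encodes the subunit of complex IV that takes electrons from cytochrome c, lies at chrM:7013-7696 (GRCm38, plus strand), and Gm28661, an unprocessed pseudogene, at chr1:24614885-24615565 on the minus strand. Their first 120 bases, read from the reference transcripts, are shown because a read from either gene fits both.
mt-Co2: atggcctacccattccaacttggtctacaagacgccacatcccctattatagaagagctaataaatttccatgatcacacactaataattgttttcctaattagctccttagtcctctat
Gm28661: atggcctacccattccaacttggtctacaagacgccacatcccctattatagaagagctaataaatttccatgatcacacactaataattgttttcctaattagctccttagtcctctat

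The single-cell table, made by another pipeline, listed the same 5 genes at substantial levels. In endoderm cells without 4OHT, mt-Co3 was at 13633, mt-Atp6 at 12641, mt-Co2 at 11102, mt-Nd3 at 936 and mt-Nd4l at 180 CPM of unique molecular identifiers (UMIs), written UMI CPM here and not scaled further. Thus the 0 reads of these genes in bulk do not show absence of the RNA, and no bulk value is given for them. The sixth gene, mt-Atp8, shares no word with another gene and was at 0 reads in bulk and 58.5 UMI CPM in the cells. Sharing was partial for mt-Co1 (51.14% of words) and mt-Nd4 (62.23%), and below 10% for mt-Cytb, mt-Nd1, mt-Nd2, mt-Nd5 and mt-Nd6, so that the bulk values of mt-Co1 and mt-Nd4 may miss reads. Among 100 nuclear members found in the annotation, 4 shared at least 50% of their words, 25 at least 10% and 41 none. Ndufs5, an accessory subunit of complex I, was at 0 to 6 reads in bulk but at 146 UMI CPM in the endoderm cells, and the pseudogene Ndufs5-ps held 71 to 160 reads in bulk.

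**Figure D1:**
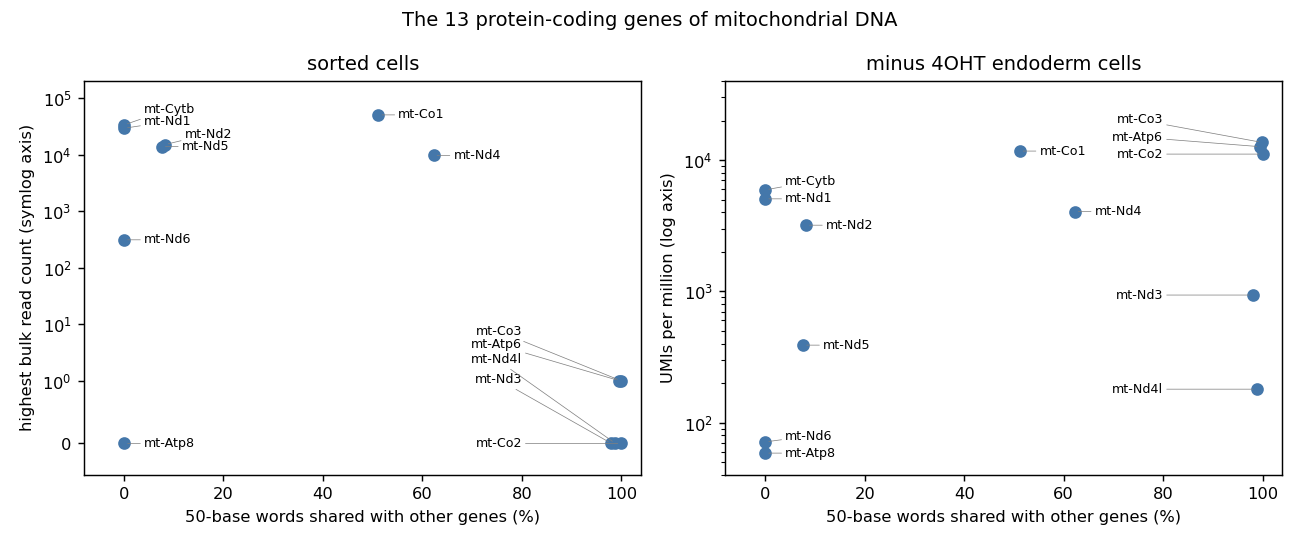
The 13 mtDNA genes, each a point, by the percentage of their 50-base words found in another gene (x axis) and by their highest read count in any of the 9 bulk libraries (left, symlog axis) or their UMI CPM in endoderm cells without 4OHT (right, log axis). The 5 genes at 97.99% or more stand at 0 or 1 read on the left and between 180 and 13633 UMI CPM on the right.

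In all, 101 members passed the filter on low counts: 94 nuclear-encoded genes (47 of complex I, 8 of II, 8 of III, 14 of IV and 17 of V) and 7 mtDNA genes. The 15 that did not pass were Cox4i2, Cox6a2, Cox6c2, Cox8b, Cox8c, Ndufa11b, Ndufa4l2, Ndufb4c, Ndufs5 and the 6 mtDNA genes above. Per kilobase of exon, the mean level in Oct4+ was highest for mt-Cytb (2245 CPM per kb), mt-Co1 (2033 CPM per kb) and mt-Nd1 (1728 CPM per kb), while mt-Co1 stood above mt-Cytb in Pdgfra+ (2196 against 1983 CPM per kb) and DP (2038 against 1567 CPM per kb). Among nuclear genes it was highest in Oct4+ for Atp5b (578 CPM per kb) and Atp5a1 (430 CPM per kb), which encode the catalytic beta subunit and the alpha subunit of ATP synthase.

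To ask how the complexes differ between the sorted groups, the CPM of all members of a complex were summed in each library. Complex V was at 3871, 4489 and 3813 CPM in Pdgfra+, 4215, 5455 and 4767 CPM in DP and 5771, 5598 and 6629 CPM in Oct4+. The 3 Oct4+ libraries were all above the others, while DP and Pdgfra+ overlapped. Complex IV was at 1662, 1828 and 1500 CPM in Pdgfra+, 1913, 2219 and 2230 CPM in DP and 1870, 2383 and 2781 CPM in Oct4+. Here each DP and Oct4+ library lay above the 3 Pdgfra+ libraries, and DP and Oct4+ overlapped. Complex I was at 2526 ± 140 CPM (SD, n = 3) in Pdgfra+, 2777 ± 199 in DP and 3013 ± 398 in Oct4+, with Oct4+ replicate 1 (2645 CPM) inside the Pdgfra+ range of 2439 to 2688 CPM. Complex II, which feeds electrons from the citric acid cycle, was at 675 ± 47.5 CPM in Pdgfra+, 810 ± 83.9 in DP and 832 ± 94.9 in Oct4+. Complex III was at 935 ± 56.2, 1093 ± 98.2 and 1021 ± 123 CPM in the same order, the only complex whose mean was highest in DP. The sum over the 13 mtDNA genes rests on the 7 that passed the filter, since the rest, mt-Co2, mt-Co3 and mt-Atp6 among them, held at most 1 read. This sum was 9985 ± 305 CPM in Pdgfra+, 8906 ± 1769 in DP and 9655 ± 2571 in Oct4+, and its SD in the latter 2 groups was larger than any difference between the means. DP replicate 2 (6886 CPM) and Oct4+ replicate 2 (6782 CPM) were the lowest libraries for this sum in their groups. No test was made on these sums.

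**Figure D2:**
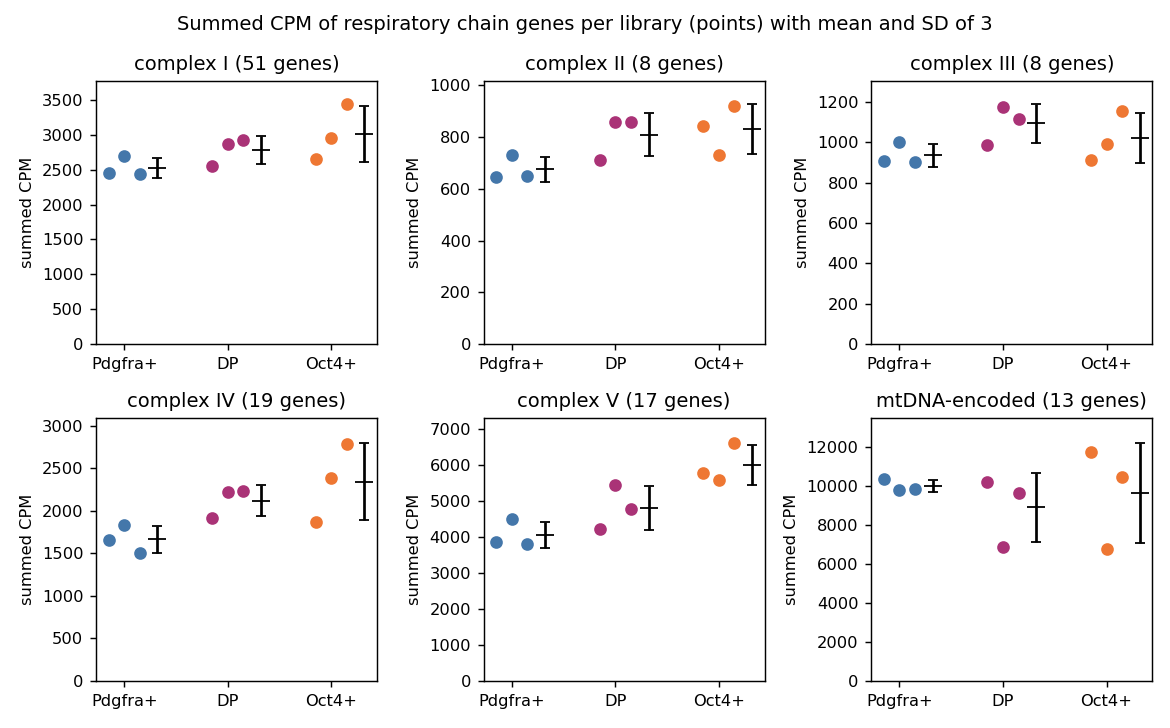
Summed CPM of the members of each complex and of mtDNA (y axis, from 0) in each of the 9 bulk libraries, with the mean and SD of 3 libraries beside each group. For complex V the Oct4+ libraries (5598 to 6629 CPM) lie above all others. For mtDNA, where the sum rests on the 7 genes that passed the filter, the DP and Oct4+ libraries spread over 6782 to 11737 CPM.

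Between Oct4+ and Pdgfra+, the ends of the sort, 33 of the 94 nuclear members were called higher in Oct4+ and 7 were called lower, which is 35.1% and 7.45%. Over all 14185 genes, 31.8% were called higher and 31.5% lower in this comparison, so that the share called higher was near that of all genes and the share called lower was smaller. The median log2 fold change was 0.32 for nuclear members and 0.01 for all genes tested. In bulk samples such as these, fewer cells of a type and less RNA per cell cannot be told apart. Of the 41 members called in either direction, mt-Nd5 included, 38 had no overlap between the 3 libraries of each group, the others being Ndufs8, Cox4i1 and Ndufb6, and 10 differed by more than 2-fold. Neither was counted over all genes, so these counts show nothing particular to the members. The 33 calls of higher expression were all kept under DESeq2's size factors and upper quartile scaling, and 18 of them whichever library was left out. Those lost include Sdha, Uqcrb, Cox4i1, Cox5b, Cox7a1, Atp5pb, Atp5j, Ndufa4, Ndufaf5, Ndufb5, Ndufb6, Ndufb9, Ndufs6 and Ndufs8, each without Pdgfra+ replicate 1, Pdgfra+ replicate 3 or either of them, and several also without an Oct4+ library. Of the 8 called lower, 3 were kept under both scalings and whichever library was left out (Ndufaf7, Cox7a2l and Ndufa13). Without Pdgfra+ replicate 1 the 41 calls became 25, and without Pdgfra+ replicate 3 they became 26, while without Oct4+ replicate 3 the nuclear median fell to 0.18. The split of 33 higher and 8 lower became 43 and 3 with DESeq2's size factors and 55 and 3 with upper quartile scaling, under which the median of all genes moved to 0.09 and 0.26.

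**Figure D3:**
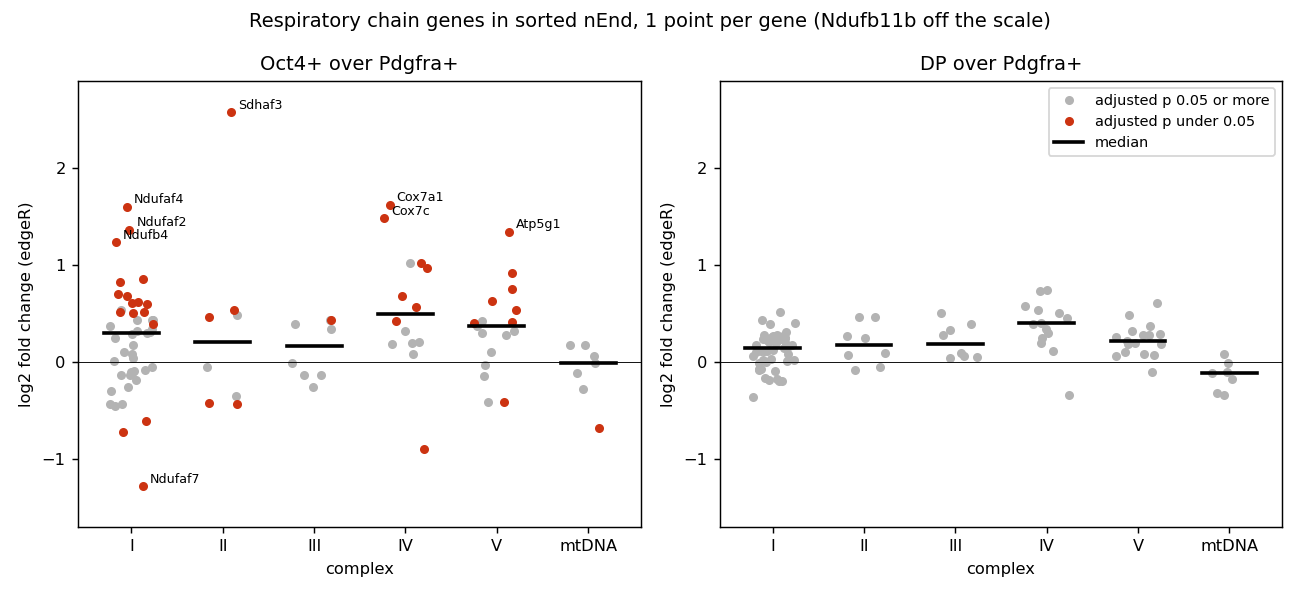
Log2 fold change (y axis) of Oct4+ over Pdgfra+ (left) and of DP over Pdgfra+ (right) for members that passed the filter, grouped by complex and mtDNA (x axis), with called members in red, the median of each group as a bar and Ndufb11b off the scale. On the left, complexes IV (median 0.50) and V (median 0.37) lie highest, and mtDNA (median -0.01) lies lowest.

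The calls by complex are to be read against all genes, of which 31.8% were called higher and 31.5% lower. The share called higher was 31.9% in complex I. In complex IV 7 of 14 tested members were called higher and 1 lower (median log2 0.50), and in complex V 7 of 17 higher and 1 lower (median log2 0.37). In complex I 15 of 47 were higher and 3 lower (median 0.30), in complex II 3 of 8 higher and 2 lower (median 0.21), and in complex III 1 of 8 higher and 0 lower (median 0.17). Of the 7 mtDNA genes tested 0 were called higher and 1 was lower (median -0.01). Leaving out 1 library moved these medians. Without Oct4+ replicate 3 that of complex V was 0.18, of complex I 0.14, of complex II 0.09 and of complex III -0.01, and without Pdgfra+ replicate 1 those of complexes II and I were 0.08 and 0.18. Without Pdgfra+ replicate 3 that of complex III was 0.10, while that of complex IV stayed between 0.42 and 0.64 whichever library was left out. That of mtDNA went from -0.20 without Oct4+ replicate 1 to 0.09 without Oct4+ replicate 2. Whether the complexes differ from each other was not tested. At an unadjusted p under 0.05, 3 of the 8 complex III genes and 1 of the 7 mtDNA genes passed. Over all genes 9500 of 14185 passed, a larger share than in either class.

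Among the core subunits of complex I, which bind NADH and the iron-sulfur clusters, 3 of 7 were called higher and 0 lower, against 31.8% and 31.5% of all genes. Ndufv1, which carries the NADH site, was at 97.5, 108 and 87.0 CPM in Pdgfra+ and 146, 141 and 157 CPM in Oct4+, with DP in between at 99.2, 136 and 128 CPM. The groups at the ends did not overlap (log2 fold change 0.60 ± 0.147 SE, edgeR adjusted p = 0.00479). Ndufs8, which holds iron-sulfur clusters, had a log2 fold change of 0.52 (edgeR adjusted p = 0.0381). Its libraries overlapped, and the call was lost without Oct4+ replicate 1 or 3 or Pdgfra+ replicate 1 or 3 (log2 down to 0.32), with no filter and with the replicate block. Ndufs1 (0.37), Ndufv2 (0.29), Ndufs3 (-0.13) and Ndufs7 (-0.18) did not pass.

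Accessory subunits of complex I gave some of the clearest differences in both directions. Ndufa7 was at 72.7, 68.0 and 78.4 CPM in Pdgfra+, 70.5, 71.1 and 87.9 CPM in DP and 113, 121 and 161 CPM in Oct4+, so that DP lay with Pdgfra+ (Oct4+ over Pdgfra+, log2 0.85 ± 0.162 SE, edgeR adjusted p = 0.00116). Ndufa13, also known as Grim19, went the other way, with 113, 122 and 116 CPM in Pdgfra+, 110, 97.5 and 106 CPM in DP and 61.2, 78.2 and 73.1 CPM in Oct4+ (log2 -0.72 ± 0.127 SE, edgeR adjusted p = 0.000686). It shares 28.54% of its words with other genes, mostly its neighbour Tssk6, and whether reads were assigned by strand is not given in the sources used here. Ndufb4, called higher in Oct4+ (log2 1.24, edgeR adjusted p = 0.00764), had low counts in all bulk groups, at 2.39 to 4.58 CPM in Pdgfra+ and 7.28 to 9.40 CPM in Oct4+. In the endoderm cells without 4OHT it was at 146 UMI CPM. It shares 18.27% of its words with other genes, Ndufb4c above all, so its bulk level may be too low and its fold change is uncertain. Ndufa4, named for complex I but known as a subunit of complex IV, was at 124 to 160 CPM in Pdgfra+ and 182 to 303 CPM in Oct4+ (log2 0.68, edgeR adjusted p = 0.0159), a call lost without Oct4+ replicate 3, Pdgfra+ replicate 1 or Pdgfra+ replicate 3 (log2 down to 0.40).

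Ndufb11b, a gene that resembles the complex I subunit Ndufb11, was the member with the largest difference. It held 0, 1 and 1 reads in Pdgfra+, 4, 21 and 9 reads in DP and 377, 139 and 188 reads in Oct4+, and the 3 groups were fully separated. Taken over the groups, the level in Oct4+ was 305 times that in Pdgfra+, with an exact 95% counting interval of 84.2 to 2525 on the 704 and 2 reads, which covers counting error only (edgeR adjusted p = 1.64e-05). Ndufb11 itself was at 62.6 to 70.3 CPM in Pdgfra+ and 58.1 to 70.8 CPM in Oct4+ and was not called (log2 -0.05, edgeR adjusted p = 0.72). Ndufb11b has no entry in the reference annotation, so its sharing of reads with Ndufb11 could not be measured and its counts are uncertain. The markers of 2-cell-like cells stood higher in the same libraries, as given above, and their part in this difference was not tested.

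The assembly factors, which build the complexes but do not stay in them, gave several of the largest differences. Of the 8 Ndufaf genes 4 were called higher in Oct4+ and 1 lower (median log2 0.62), and of the 4 Sdhaf genes 1 was higher and 1 lower. Of all genes 31.8% were called higher and 31.5% lower. Sdhaf3, which helps to mature the iron-sulfur subunit of complex II, was at 2.92, 4.07 and 3.13 CPM in Pdgfra+, 5.35, 5.18 and 3.52 CPM in DP and 15.3, 18.9 and 26.6 CPM in Oct4+ (log2 2.58 ± 0.308 SE, edgeR adjusted p = 6.57e-05). DP stood close to Pdgfra+, and every Oct4+ library was above 15 CPM. Ndufaf4, needed for early steps of complex I assembly, was at 11.0, 16.8 and 11.5 CPM in Pdgfra+, 14.3, 23.3 and 18.4 CPM in DP and 38.6, 37.2 and 43.3 CPM in Oct4+ (log2 1.60 ± 0.236 SE, edgeR adjusted p = 0.000238). Ndufaf2 (log2 1.37), which shares 64.07% of its words with B230220B15Rik, Ndufaf6 (log2 0.83) and Ndufaf5 (log2 0.70, edgeR adjusted p = 0.0438) were called higher as well. Ndufaf7, a methyltransferase that acts in complex I assembly, was lower in Oct4+ at 8.66, 16.2 and 9.29 CPM, against 23.0, 29.4 and 30.5 CPM in Pdgfra+ and 28.1, 25.7 and 34.2 CPM in DP (log2 -1.28 ± 0.263 SE, edgeR adjusted p = 0.0018). Thus DP resembled Pdgfra+ in its level of Ndufaf7, and the Oct4+ libraries lay apart. Ndufaf1 (-0.43), Ndufaf3 (-0.45) and Ndufaf8 (0.54) did not pass.

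**Figure D4:**
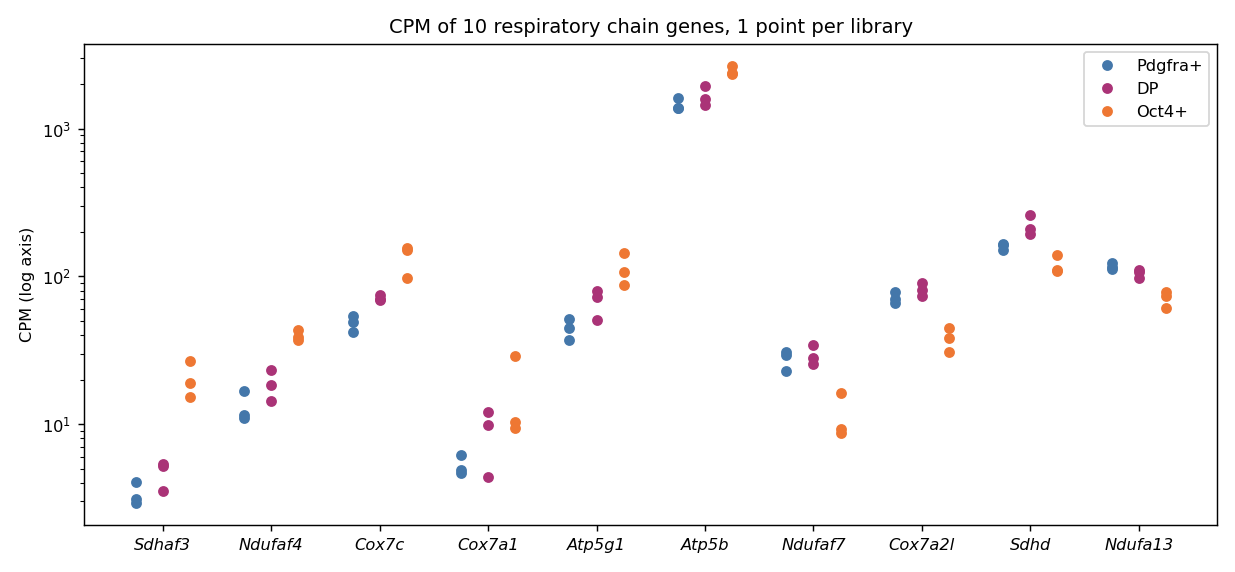
CPM of 10 members (x axis) in the 9 bulk libraries (y axis, log scale), with each library as a point coloured as Pdgfra+, DP or Oct4+. In Sdhaf3, Ndufaf4, Cox7c, Atp5g1 and Atp5b the Oct4+ points stand above the others, in Ndufaf7, Cox7a2l, Sdhd and Ndufa13 they stand below, and in Cox7a1 they overlap with DP.

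In complex II the 4 structural subunits did not move together. Sdha, the flavoprotein, was at 236, 292 and 244 CPM in Pdgfra+ and 425, 325 and 373 CPM in Oct4+ (log2 0.54, edgeR adjusted p = 0.011). Sdhb, the iron-sulfur subunit, was at 70.4, 73.0 and 77.6 CPM in Pdgfra+ and 101, 97.0 and 108 CPM in Oct4+ (log2 0.47, edgeR adjusted p = 0.00687). Sdhd, a membrane anchor, was instead lowest in Oct4+ at 110, 109 and 139 CPM, intermediate in Pdgfra+ at 165, 163 and 151 CPM and highest in DP at 192, 208 and 261 CPM. Its Oct4+ against Pdgfra+ difference (log2 -0.42, edgeR adjusted p = 0.0333) was not called under either other scaling. Sdhc (0.48, adjusted p = 0.0604) did not pass, and the assembly factor Sdhaf2, which adds the flavin to Sdha, was called lower (-0.43, edgeR adjusted p = 0.0366), a call lost under both other scalings.

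In complex III the core proteins Uqcrc1 (log2 0.34) and Uqcrc2 (-0.26) and the Rieske iron-sulfur protein Uqcrfs1 (-0.14) did not pass. Uqcrb was the only Uqcr gene called (0.43, edgeR adjusted p = 0.0296). The complex III subunit gene Cyc1 falls outside the symbol rule and is given below, where it was called higher in Oct4+. In complex V, Atp5b was at 1379, 1612 and 1372 CPM in Pdgfra+, 1455, 1939 and 1580 CPM in DP and 2365, 2328 and 2657 CPM in Oct4+ (log2 0.75 ± 0.145 SE, edgeR adjusted p = 0.00123), with no overlap between Oct4+ and the others. Atp5a1 was at 878 to 1013 CPM in Pdgfra+ and 1263 to 1428 CPM in Oct4+ (log2 0.54, edgeR adjusted p = 0.00706). Atp5o, Atp5pb and Atp5j of the stalk were also called higher, with log2 fold changes of 0.63, 0.41 and 0.41. Atp5d, the delta subunit of the central stalk, was called lower in Oct4+ at 157, 163 and 187 CPM against 217, 252 and 205 CPM in Pdgfra+ (log2 -0.41, edgeR adjusted p = 0.0194), a call lost under both other scalings. Atp5c1 (0.32) and Atp5e (-0.03) did not pass.

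Isoform families were read gene by gene, and differences between isoforms were not tested. The genes Atp5g1, Atp5g2 and Atp5g3 encode the same mature ring subunit of ATP synthase behind different import sequences. Atp5g1 was at 36.9, 51.3 and 44.7 CPM in Pdgfra+, 50.6, 79.0 and 72.9 CPM in DP and 107, 86.9 and 144 CPM in Oct4+ (log2 1.34 ± 0.229 SE, edgeR adjusted p = 0.000593). Atp5g3 was at 205, 244 and 203 CPM in Pdgfra+, 254, 346 and 310 CPM in DP and 364, 354 and 516 CPM in Oct4+ (log2 0.92 ± 0.18 SE, edgeR adjusted p = 0.00134). Atp5g2 was at 28.4 to 30.2 CPM in Pdgfra+, 29.7 to 32.3 CPM in DP and 23.0 to 28.4 CPM in Oct4+ and was not called (log2 -0.15, edgeR adjusted p = 0.415). Per kilobase of exon, Atp5g3 had the highest CPM of the 3 in every bulk group (99.5 CPM per kb in Pdgfra+ and 189 CPM per kb in Oct4+), while Atp5g1 went from 9.02 to 22.9 CPM per kb and so from below Atp5g2 (17.5 CPM per kb in Pdgfra+) to above it (15.8 CPM per kb in Oct4+). Atp5g2 shares 38.35% of its words with other genes, mostly Gm10175, and Atp5g1 shares 11.1%, so the levels of both may be too low. In the endoderm cells without 4OHT the order was the reverse, with Atp5g1 at 761, Atp5g2 at 576 and Atp5g3 at 345 UMI CPM.

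Of the isoform families as a whole, 9 of 18 tested genes were called higher in Oct4+ and 1 was called lower, where 31.8% of all genes were higher and 31.5% lower. Cox7a1, an isoform known from heart and skeletal muscle, was at 4.87, 6.16 and 4.69 CPM in Pdgfra+, 4.35, 9.89 and 12 CPM in DP and 10.4, 9.34 and 29.0 CPM in Oct4+ (log2 1.62 ± 0.496 SE, edgeR adjusted p = 0.0158). One library, Oct4+ replicate 3, stood far above the others, and the call was lost without Oct4+ replicate 3, Pdgfra+ replicate 1 or Pdgfra+ replicate 3, with log2 fold changes of 0.90 to 1.89 over the libraries left out. Its common partner Cox7a2 was at 90.5 to 120 CPM in Pdgfra+ and 112 to 152 CPM in Oct4+ and was not called (0.33, edgeR adjusted p = 0.112). Cox7a2l, the related protein that holds complexes III and IV together in supercomplexes, was at 77.8, 65.5 and 69.9 CPM in Pdgfra+, 80.6, 73.1 and 90.5 CPM in DP and 44.9, 30.8 and 38.3 CPM in Oct4+ (log2 -0.90 ± 0.164 SE, edgeR adjusted p = 0.000889). This was the only complex IV gene called lower.

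Other complex IV genes called higher were small structural subunits. Cox7c was at 53.6, 48.8 and 42.1 CPM in Pdgfra+, 69.4, 75.3 and 70.4 CPM in DP and 98.0, 150 and 156 CPM in Oct4+, and all 3 groups were separated (Oct4+ over Pdgfra+, log2 1.48 ± 0.185 SE, edgeR adjusted p = 8.42e-05). Cox5a was at 127, 173 and 131 CPM in Pdgfra+, 164, 234 and 227 CPM in DP and 261, 268 and 348 CPM in Oct4+ (log2 1.03 ± 0.189 SE, edgeR adjusted p = 0.000962). Cox6c (log2 0.97), Cox7b (0.68), Cox4i1 (0.57) and Cox5b (0.43) followed. The broad isoforms Cox6a1 (0.19), Cox6b1 (0.20) and Cox8a (0.09) and the testis isoform Cox6b2 (0.21) did not pass. Further tissue-restricted isoforms stayed near the floor: Cox6a2 and Cox8b had 0 or 1 read in every library, and Cox8c had 5, 7 and 20 reads in Oct4+ against at most 1 read elsewhere. Ndufa4l2, known from hypoxic cells, had 45, 33 and 5 reads in Oct4+, 7, 4 and 1 reads in DP and 0, 2 and 0 reads in Pdgfra+.

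The mtDNA genes showed no common direction. mt-Nd5, a proton-pumping subunit of complex I, was at 1394, 1226 and 1113 CPM in Pdgfra+, 1335, 892 and 1085 CPM in DP and 1073, 541 and 712 CPM in Oct4+ (log2 -0.68 ± 0.243 SE, edgeR adjusted p = 0.0312). The Oct4+ libraries lay below every Pdgfra+ library, but the call was lost under both other scalings and without Oct4+ replicate 2, Oct4+ replicate 3 or Pdgfra+ replicate 1. mt-Co1, the catalytic subunit of complex IV, was at 3257 to 3513 CPM in Pdgfra+ and 2171 to 3893 CPM in Oct4+ (log2 -0.11). The Oct4+ range thus enclosed that of Pdgfra+. The other log2 fold changes were 0.18 for mt-Cytb, 0.17 for mt-Nd1, 0.06 for mt-Nd2, -0.01 for mt-Nd6, the gene on the opposite strand, and -0.28 for mt-Nd4.

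Next, DP was compared with Pdgfra+, that is, endoderm with and without the OCT4 reporter. Over all genes 4.61% were called higher and 2.26% lower in DP, and of the members 1 was called, Ndufb11b, on 34 reads in DP against 2 in Pdgfra+ (19.6 times the level, exact 95% counting interval 5.02 to 168, edgeR adjusted p = 0.0288). The call was lost without any 1 of 5 libraries, all but DP replicate 1. The next smallest edgeR adjusted p was 0.0868, for Cox7c (log2 0.57). An unadjusted p under 0.05 was found for 15 of 101 members and for 3616 of all 14185 genes, which is the larger share. Signs leaned one way, with a log2 fold change above 0 for 79 of 94 nuclear members, against 7360 of all 14185 genes. The nuclear median log2 fold change was 0.20, against 0.02 for all genes. The medians were 0.40 for complex IV, 0.21 for V, 0.18 for III, 0.17 for II, 0.14 for I and -0.12 for the 7 mtDNA genes. The mtDNA median turned to 0.04 without DP replicate 2 and was -0.33 without DP replicate 1. That of complex II was 0.31 without Pdgfra+ replicate 2 and 0.26 without DP replicate 1, and that of complex I 0.09 without DP replicate 3. The epiblast-like markers stood higher in DP as well, as given above, and their part was not tested.

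Libraries of DP and Pdgfra+ with the same replicate number deviated together, and with the replicate number as a block in a fit of these 6 libraries 12 of 98 members were called higher in DP and 0 lower, where 10.4% of all genes were called higher and 9.86% lower. They were 5 of 13 complex IV genes (Cox7c, Cox5a, Cox6a1, Cox7b and Cox6b1), 3 of 17 complex V genes (Atp5g1, Atp5g3 and Atp5o), 2 of 8 complex III genes (Uqcr10 and Uqcrc1), 1 of 8 complex II genes (Sdhd) and 1 of 45 complex I genes (Ndufa8). The largest difference was that of Atp5g1, at 0.61 ± 0.108 SE on the log2 scale (edgeR adjusted p = 0.0212), followed by Cox7c with 0.60 ± 0.116 SE (edgeR adjusted p = 0.0237). The smallest of the 12 was Atp5o at 0.39. The same block in a fit of all 9 libraries called 1 member, and the 6 libraries with no block also called 1, so that these 12 calls rest on the blocked fit of the 2 endoderm groups. Ndufb11b did not pass the filter on low counts there.

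DP was then compared with Oct4+, and these values share the DP libraries with the comparison above and the Oct4+ libraries with the first one. All genes were called at 28.3% higher and 27.9% lower in DP. Of the 94 nuclear members 7 were called higher and 12 lower in DP, fewer in both directions than over all genes. All 19 were without overlap between libraries, which was not counted over all genes. The median log2 fold change of the 94 was -0.15, against -0.04 for all genes, and it was 0.00 without Oct4+ replicate 3 and -0.04 without DP replicate 1. The split of 7 and 12 became 6 and 19 with DESeq2's size factors and 5 and 38 with upper quartile scaling. A change of scaling moves all genes, and their shares under these scalings are not given here, so this shift is not one of the members alone.

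The 12 genes lower in DP, all of them also called higher in Oct4+ than in Pdgfra+, with which this comparison shares the Oct4+ libraries, were Ndufb11b (log2 -3.92), Sdhaf3 (-2.11 ± 0.302 SE, edgeR adjusted p = 0.000268), Ndufaf2 (-1.14), Ndufb4 (-1.13), Ndufaf4 (-1.09), Cox7c (-0.91), Ndufa7 (-0.79), Atp5g1 (-0.74), Atp5b (-0.56), Ndufaf6 (-0.54), Sdhb (-0.52) and Cox5a (-0.49). Those higher in DP were Ndufaf7 (1.36 ± 0.264 SE, edgeR adjusted p = 0.00157), Cox7a2l (1.10 ± 0.165 SE, edgeR adjusted p = 0.000353), Sdhd (0.88 ± 0.152 SE, edgeR adjusted p = 0.000789), Atp5d (0.60), Ndufa13 (0.56), Sdhaf2 (0.53) and Ndufs7 (0.37). The Ndufs7 call was lost under both other scalings and without any 1 of 4 libraries (Oct4+ replicates 1 and 3, DP replicates 2 and 3), and the Sdhaf2 call under upper quartile scaling and without DP replicate 3. Among the 12 lower calls, 8 were kept whichever library was left out. Cox5a was lost without any 1 library but DP replicate 2 (log2 -0.56 to -0.31), Ndufaf6 without any 1 of 4 libraries (Oct4+ replicates 2 and 3, DP replicates 1 and 3), Atp5g1 without Oct4+ replicate 3 or DP replicate 1, and Ndufb4 without DP replicate 1. Of the 33 nuclear members called higher in Oct4+ than in Pdgfra+, 32 had a DP mean between the means of those groups, as did 2 of the 7 called lower and 56 of all 94 tested. Genes picked for a gap between these groups leave more room for a DP mean inside it. The share among all called genes was not counted.

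Promoters of the members were read for short motifs, since several factors are known to act on respiratory genes. RefSeq windows of 300 bases (250 before and 50 after the start, GRCm38.p6) were at hand for 81 members and 27025 genes in all. Motifs were read as exact letters on either strand, and a gene was counted where any of its windows held the motif. The letters CCGGAAG, the core of ETS and NRF2 (GABP) sites, were found for 27.2% of these members and 9.93% of all genes with a window. GCATGCG, within the NRF1 site, was in 16.1% and 4.02%, AAGATGGC, a YY1 site, in 13.6% and 3.19%, and AAGGTCA, the core of the site of estrogen-related receptors, in 9.88% and 5.38%. CCAAT was in 43.2% and 41.1% and GGGCGG, the SP box, in 48.2% and 38.2%. Members differed by complex: CCGGAAG was found for 71.4% of 7 complex II genes and 40% of 15 complex V genes but for 14.6% of 41 complex I genes. Among members with a window, CCGGAAG was found for 20% of the 25 called higher in Oct4+ and 31.9% of the 47 not called, and GCATGCG for 16.0% and 19.2% of them. These shares are descriptions of letters, were not tested and do not show binding.

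The stretches before the start of 4 members with large differences are shown 5′ to 3′ on the strand of the gene and without annotated exon, with motif letters in capitals, the SP box apart, which is left unmarked. They are Ndufaf4 (chr4:24897833-24898082, plus strand), Cox7a1 (chr7:30183921-30184143, plus strand) and Atp5g1 (chr11:96075671-96075881, minus strand), called higher in Oct4+, and Cox7a2l (chr17:83514334-83514583, minus strand), called lower. The capitals mark GCATGCG, found on both strands, in Ndufaf4 and CCAAT or its reverse in Cox7a1 and Atp5g1, where it occurs 2 and 5 times. In Cox7a2l 0 of these motifs other than the SP box were found in the stretch. That stretch lies inside the annotated gene (chr17:83501918-83517330), and the bases before the outer start of the gene are not shown.
Ndufaf4: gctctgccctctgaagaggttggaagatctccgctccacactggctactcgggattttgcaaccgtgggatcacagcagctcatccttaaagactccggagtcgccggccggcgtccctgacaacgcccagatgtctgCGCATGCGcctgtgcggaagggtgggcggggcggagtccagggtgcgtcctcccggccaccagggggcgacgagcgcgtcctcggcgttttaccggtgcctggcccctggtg
Cox7a1: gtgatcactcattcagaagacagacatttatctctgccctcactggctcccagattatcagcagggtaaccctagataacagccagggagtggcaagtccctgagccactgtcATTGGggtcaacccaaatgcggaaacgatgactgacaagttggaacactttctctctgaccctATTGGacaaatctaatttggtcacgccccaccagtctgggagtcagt
Atp5g1: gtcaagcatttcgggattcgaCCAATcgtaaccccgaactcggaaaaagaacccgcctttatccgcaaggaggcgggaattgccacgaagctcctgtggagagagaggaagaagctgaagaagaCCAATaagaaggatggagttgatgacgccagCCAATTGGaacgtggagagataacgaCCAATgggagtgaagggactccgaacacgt
Cox7a2l: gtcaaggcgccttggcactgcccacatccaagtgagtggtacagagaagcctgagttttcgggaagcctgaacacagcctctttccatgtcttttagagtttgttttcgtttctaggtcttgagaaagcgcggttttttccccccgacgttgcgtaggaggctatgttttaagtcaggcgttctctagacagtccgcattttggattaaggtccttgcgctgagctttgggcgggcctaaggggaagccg

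Genes outside the symbol rule, most of them working beside the chain and some, such as Cyc1, part of it, were read from lists that do not overlap the members. Their counts are to be read against the shares of all genes, 31.8% higher and 31.5% lower in Oct4+ than in Pdgfra+, and differences between lists were not tested. Of 9 regulators of respiratory genes 5 were called higher in Oct4+ and 1 lower. Myc was at 6.58 to 8.25 CPM in Pdgfra+ and 27.7 to 53.9 CPM in Oct4+ (log2 2.36), Gabpa, the DNA-binding part of NRF2, at 57.5 to 79.6 and 129 to 170 CPM (log2 1.17), and Nrf1 at 39.7 to 44.7 and 87.1 to 90.2 CPM (log2 1.05). Esrra, an estrogen-related receptor, was instead lower in Oct4+ (52.1 to 76.4 CPM in Pdgfra+, 30.0 to 37.6 CPM in Oct4+, log2 -1.02). Ppargc1b, a coactivator, was higher in DP than in Pdgfra+ (log2 2.36, edgeR adjusted p = 0.0365), at 2.86, 5.65 and 6.91 against 0.73, 1.39 and 0.83 CPM.

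Of 17 genes for mtDNA expression 7 were called higher in Oct4+ and 1 lower, with Tfb1m (log2 1.005), the single-stranded DNA binding protein Ssbp1 (0.96) and Trmt10c (0.87) the largest. Of 8 genes of cytochrome c and complex III outside the symbol rule, 2 were higher and 2 lower. Among them were cytochrome c itself (Cycs, log2 1.18) and the complex III subunit gene Cyc1 (0.63), both higher, and the complex III chaperone Bcs1l (-0.79). Of the complex IV assembly factors 3 of 21 were higher and 6 lower. The largest differences were lower levels of the copper chaperone Sco2 (-1.02), Cmc1 (-0.93) and Surf1 (-0.80). Of 8 complex I assembly genes outside the symbol rule, 3 were higher (Nubpl, 0.81, Ecsit, 0.77, and Acad9, 0.68) and 0 lower, and Acad9 was also higher in DP than in Pdgfra+ (log2 0.78, edgeR adjusted p = 0.0263).

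In the citric acid cycle 3 of 14 genes were higher in Oct4+ and 2 lower, and the forms of isocitrate dehydrogenase were opposed, with Idh3a (0.84) and Idh3g (0.74) of the NAD-linked enzyme higher and the NADP-linked Idh2 lower (-0.86). For uncoupling and other electron entry, 2 of 7 genes were higher and 3 lower. Prodh, proline dehydrogenase, was higher (log2 3.89), and Ucp2, a mitochondrial carrier (192 to 307 CPM in Pdgfra+ and 49.1 to 94.5 CPM in Oct4+, log2 -1.73), and Etfdh, which passes electrons from fatty acid oxidation to ubiquinone (-1.60), were lower. In DP against Oct4+, where 28.3% of all genes were higher and 27.9% lower, the counts higher and lower in DP were 1 and 4 for regulators, 1 and 7 for mtDNA expression, 6 and 2 for complex IV assembly, 4 and 0 for uncoupling and other entry, 2 and 2 for the citric acid cycle, 1 and 2 for cytochrome c and complex III, and 0 and 0 for complex I assembly outside the rule.

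To compare the members in endoderm cells grown with and without 4OHT, cells of the single-cell libraries were called endoderm where Sparc, Col4a1 and Col4a2 summed to 3000 or more UMI CPM, among cells with at least 1000 UMIs. This gave 1542 cells without 4OHT (25398828 UMIs, median 14757.5 per cell) and 6706 cells with 4OHT (92023177 UMIs, median 12213.5 per cell), while 4895 and 371 cells lay below the threshold. In the band from 3000 to 3500 there were 37 and 33 cells, and in the band from 2500 to 3000 there were 35 and 33. The libraries shared 21 barcodes. Pou5f1 was at 16.1 UMI CPM in endoderm cells without 4OHT and 2.22 with 4OHT. With 1 library for each condition there is no test, intervals are exact 95% intervals that cover counting error only, and a difference between these libraries cannot be told apart from one between culture dishes.

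The summed respiratory chain genes were lower in endoderm cells with 4OHT. The nuclear members summed to 24893 UMI CPM without and 21976 with 4OHT, a ratio of 0.883 (interval 0.880 to 0.885), and the mtDNA members to 68953 and 65050, a ratio of 0.943 (0.942 to 0.945). On the log2 scale the mtDNA ratio was -0.0841, and it was -0.0391 as a mean over cells and 0.0162 without cells holding a UMI of Amn (a marker of visceral endoderm). By complex the ratio was 0.826 for V (7705 to 6361 UMI CPM), 0.872 for IV (6610 to 5766), 0.921 for III (2509 to 2310), 0.934 for I (7574 to 7073) and 0.940 for II (495 to 465). Among genes at 20 or more UMI CPM in either library, 66 of 88 nuclear members were lower and 22 higher with 4OHT, with a median log2 ratio of -0.19. Of all 6805 genes 2640 were lower and 4165 higher, with a median of 0.15. In complex V 16 of 17 genes were lower. Differences over 1.5-fold were few: 1 nuclear member was higher and 4 were lower, and 0 and 2 of the 13 mtDNA genes, where 21.8% of all genes were higher and 8.83% lower by that fold.

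**Figure D5:**
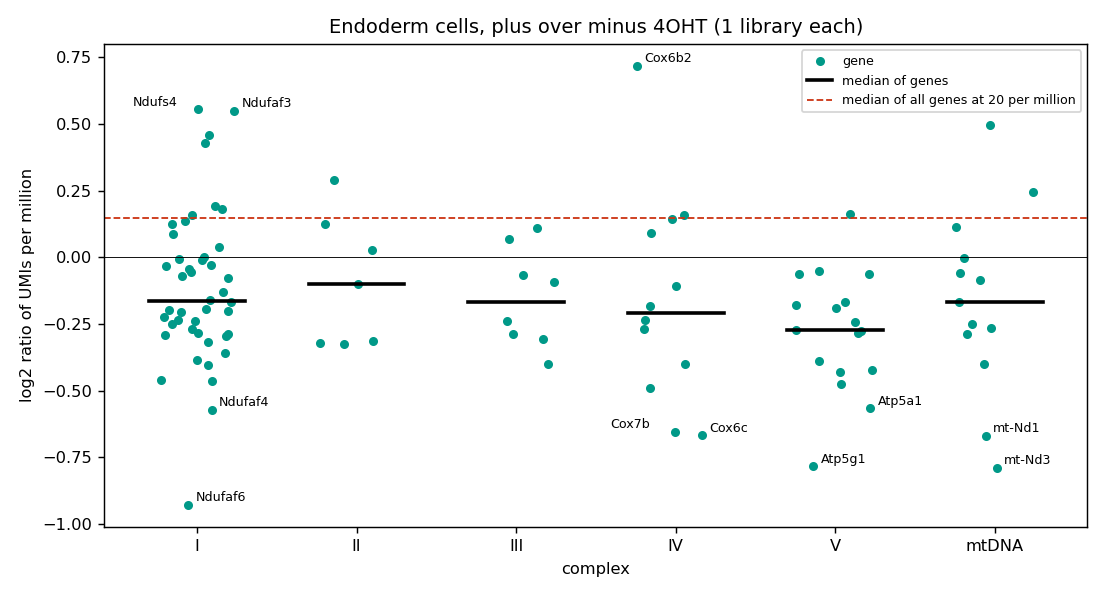
Log2 ratio of UMI CPM in endoderm cells with over without 4OHT (y axis) for members at 20 or more UMI CPM, grouped by complex and mtDNA (x axis), with the median of each group as a black bar and that of all genes as a dashed line. All 6 medians lie below 0 and below the median of all genes (0.15), and complex V lies lowest.

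The members with the largest ratios are named with their intervals. The assembly factor Ndufaf6 went from 24.8 UMI CPM without 4OHT to 13.1 with 4OHT, a ratio of 0.526 (0.477 to 0.580). Atp5g1 went from 761 to 442 UMI CPM (0.581, 0.571 to 0.591), Cox6c from 614 to 387 (0.630, 0.618 to 0.642) and Cox7b from 325 to 207 (0.636, 0.620 to 0.652). These 4 genes were also called higher in Oct4+ than in Pdgfra+ in bulk. Among mtDNA genes mt-Nd3 went from 936 to 542 (0.579) and mt-Nd1 from 5064 to 3186 (0.629). Of the other isoforms of the ring subunit, Atp5g3 was at 345 and 257 (0.743) and Atp5g2 at 576 and 644 UMI CPM (1.12, 1.10 to 1.14). Higher with 4OHT were Cox6b2, from 80.4 to 132 (1.64, 1.57 to 1.72), Ndufs4, from 144 to 212 (1.47), Ndufaf3, from 23.8 to 34.8 (1.46), mt-Nd6, from 71.2 to 100.5 (1.41), Ndufa6, from 186 to 256 (1.38), and Ndufa13, from 261 to 351 (1.34). Cox7a1, below the minimum of 20, was at 15.3 and 5.66 UMI CPM (0.371, 0.324 to 0.424).

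The endoderm cells of the libraries differed in makeup. A UMI of Amn, a gene of visceral endoderm, was found in 52.4% of endoderm cells without 4OHT and 3.33% of those with 4OHT, at 306 and 3.96 UMI CPM, and in 7.82% of the cells below the threshold without 4OHT (median 16853 UMIs per cell). Cubn, its partner, was at 437 and 16.7 UMI CPM. With the Amn-positive cells left out, a choice made after the data were seen, 734 and 6483 endoderm cells remained and the log2 ratio of nuclear members went from -0.18 to -0.09, that of mtDNA members from -0.08 to 0.02 and that of complex V from -0.28 to -0.17. The other complexes then lay between -0.07 and -0.02. A UMI of Nanog or Sox2 was found in 22.9% of endoderm cells without 4OHT and 0.790% of those with 4OHT, against 85.6% of the cells below the threshold without 4OHT, and without those cells the ratio of nuclear members was -0.18. The 7 feeder fibroblast markers summed to 67.2 UMI CPM without 4OHT and 108 with 4OHT, 4 of them higher and 3 lower, and their part in the ratios was not tested.

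Within the library without 4OHT, the cells below the threshold, in which Nanog was at 178 and Sparc at 201 UMI CPM against 18.9 and 7337 in endoderm cells, were set beside the endoderm cells. The nuclear members summed to 24817 UMI CPM there, a ratio to endoderm cells of 0.997 (0.994 to 0.9998). Complex V was higher in the other cells (ratio 1.07), complexes I (0.995) and IV (0.986) were close to 1, and complexes II (0.878) and III (0.837) and mtDNA (0.908) were lower. Over 1.5-fold, 4 of 89 nuclear members at 20 or more UMI CPM were higher and 2 lower, where 17.6% of all genes were higher and 28.3% lower. Those higher were Ndufaf6 (24.8 to 41.4 UMI CPM), Ndufaf4 (36.9 to 60.3), Cox7a1 (15.3 to 24.6) and Ndufa7 (255 to 389), and those lower were Ndufaf7 (27.8 to 13.4) and Uqcrfs1.

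Members called between Oct4+ and Pdgfra+ in bulk were then looked up in this other line. Of the 33 nuclear members called higher, 32 were in the single-cell table, and 25 of them were higher and 7 lower in the cells below the threshold than in endoderm cells, with a median log2 ratio of 0.25. Of the 7 called lower, 7 were lower, with a median of -0.47. No minimum level was set for these members, and some, such as Sdhaf3 (11.5 and 15.8 UMI CPM in endoderm and other cells), lay below 20. For all genes at 20 or more UMI CPM the same direction was seen for 1789 of 1918 called higher and 2187 of 2285 called lower, which is 93.3% and 95.7%. The 25 of 32 members is a smaller share than 93.3%, at an unlike minimum. Cox7a2l was at 250 UMI CPM in endoderm cells and 172 in the others, and Atp5d at 482 and 347, in the direction of the bulk calls. Sdha, called higher in Oct4+ in bulk, was at 97.2 in endoderm cells and 85.0 in the others, and Cox4i1 at 966 and 939. The lines, the assay and the choice of cells differ, and the overlap in direction was not tested.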

How the data were processed

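Bulk libraries (NEBNext Ultra II Directional, mouse nEnd sorted by FACS, 3 libraries in each of 3 groups) came as a table of read counts per gene deposited by the authors, with 48952 genes and 35 blank lines that were left out. For this table, aligner, counter and strand setting were not given in the sources used here. Single-cell libraries (10x Genomics, 1 for each of 2 conditions) came as UMI counts per gene and cell deposited by the authors. The submitters' processing notes name Cell Ranger, bcl2fastq and mm10.

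The members and gene lists were chosen with earlier results of these data known. The bulk counts were tested with edgeR 4.0.16 (R 4.3.3) by its quasi-likelihood test on all 9 libraries, with TMM scaling, filterByExpr, a group term and Benjamini-Hochberg adjustment over 14185 genes, and a call at an adjusted p under 0.05. The script was tested on simulated data. Alternatives were DESeq2 (the study's tool, run here in version 1.42.0), its size factors and upper quartile scaling in edgeR, no filter, only the 6 libraries compared, a replicate block and leaving out each library. Deviations of DP and Pdgfra+ libraries with the same number, which the labels give, correlated at 0.271, 0.477 and 0.321, so these groups were also fitted with the block. The correlations were 0.0222, -0.0728 and 0.152 for DP with Oct4+ and 0.0383, -0.00413 and -0.0465 for Oct4+ with Pdgfra+, which were not taken as paired.

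Genes named are, for each comparison, the 6 called members with the largest difference each way at 5 CPM or more, those called past 1.5 on the log2 scale, the 13 mtDNA genes, the core, catalytic and isoform lists, and the 6 largest ratios each way in endoderm cells at 20 UMI CPM. Other lists are given by counts with the 3 largest calls. Members named outside this rule were chosen after their values were seen. UMIs were summed over cells by library with exact 95% intervals, without a doublet caller. Word sharing and exon lengths used the GENCODE vM21 transcripts, and promoters RefSeq on GRCm38.p6. The values of 1 member are not reported here.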

Additional observations from a re-analysis of the deposited data

How the results depend on the processing

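Between Oct4+ and Pdgfra+ the number of members called was 41, and it ranged from 25 to 42 over the libraries left out. The nuclear median of 0.32 became 0.58 under upper quartile scaling, where the median of all genes moved to 0.26. Between DP and Oct4+ 43 members were called under upper quartile scaling against 19. Between DP and Pdgfra+ 1 member was called, 12 with the replicate block in a fit of these 6 libraries, 3 with DESeq2, and 0 to 1 over the libraries left out. Apart from that blocked fit, treated above, the shares of all genes called under these other settings are not given here. The replicate block gave 31 calls (6 libraries) and 44 calls (9 libraries) between Oct4+ and Pdgfra+, and 19 and 25 between DP and Oct4+, comparisons that were not taken as paired. In endoderm cells the log2 ratio of nuclear members was -0.18, and it was -0.17 with a threshold of 5000 UMI CPM, -0.19 with mtDNA UMIs left out of the total, -0.18 as a mean over cells and -0.0932 without Amn-positive cells. That of mtDNA members was -0.0841, and it was -0.0775 with a threshold of 2000 UMI CPM, -0.10 with 5000, -0.0787 without cells over 2 times the median UMIs, -0.0901 with mtDNA UMIs left out of the total, -0.0391 as a mean over cells, 0.0162 without Amn-positive cells and -0.13 without Nanog- or Sox2-positive cells. Leaving out Amn-positive or Nanog- or Sox2-positive cells was chosen after the data were seen, and the cause of these shifts was not tested.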
